A study of Mus musculus with 18 samples.

Results

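Ventral and lateral prostate secretory genes were described as 6 named genes, Pbsn, Msmb, Sbp, Spink1, Apof and Azgp1, out of 55469 genes in the deposited tables. They were taken by symbol, from a list of names drawn up with earlier results of these data known. The lobes in the name are those of the list, and the lobe of origin of each gene's reads was not measured. All 6 were followed in 18 RNA sequencing libraries, 3 in each of 6 groups, made from the ventral and lateral lobes of male mice. The groups were ELAC2+/+ (WT), ELAC2-/- (KO) and ELAC2A537T (A537T), each at 10 and at 30 weeks of age, on a background labelled C56NL/6N. In KO mice exon 8 of Elac2 was excised by Pb-Cre, a recombinase under the probasin promoter, so the deletion depends on cells in which that promoter is active. The A537T change was in every cell of homozygous mice. The mice were matched by age and litter. Whether WT or A537T mice carried the Cre transgene is not given in the sources used here.

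The lobes of the mouse prostate are glands whose luminal cells secrete proteins into the seminal fluid, each lobe with its own mixture. Many of these genes depend on androgen. Sbp encodes spermine-binding protein, a major androgen-dependent product of the ventral lobe, and Spink1 encodes a Kazal-type inhibitor of trypsin-like proteases. Pbsn encodes probasin, a lipocalin whose promoter is used to drive transgenes in prostate epithelium. Msmb encodes beta-microseminoprotein, a small abundant protein of seminal fluid. Azgp1 encodes zinc-alpha-2-glycoprotein, a secreted protein with an MHC class I-like fold, and Apof encodes apolipoprotein F, a lipoprotein component known mainly from liver.

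On GRCm38.p6, Pbsn (ENSMUSG00000000003.15) lies on the reverse strand of chromosome X from 77837901 to 77853623, and Msmb (ENSMUSG00000021907.13) on the forward strand of chromosome 14 from 32142023 to 32158370. Sbp (ENSMUSG00000024128.13) lies on the forward strand of chromosome 17 from 23941672 to 23945607. Apof (ENSMUSG00000047631.4) lies on the forward strand of chromosome 10 from 128268671 to 128270153, and Azgp1 (ENSMUSG00000037053.6) on the forward strand of chromosome 5 from 137981520 to 137990233. Sbpl, a near copy of Sbp, lies on the reverse strand of chromosome 17 from 23953084 to 23955274.

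RefSeq promoter sequences were at hand for 3 of the 6 genes, Pbsn, Sbp and Azgp1. They were searched on both strands, in the 250 bases before each start, for AGAACA or its complement TGTTCT, one arm of the palindrome of steroid hormone response elements, and for TATAAA, the TATA box. Over all 32851 RefSeq promoters of the same length, 16.1% held the first and 7.59% held the second. The windows below show the matches, because Pbsn supplies the promoter of the Cre driver and Sbp gave the most reads. Capitals mark the matched letters.
Pbsn, AGAACA, reverse strand, chrX:77853578-77853607: caactgggatgcAGAACActgctcacgcca
Pbsn, TATAAA, reverse strand, chrX:77853542-77853571: ctgaaagccaacTATAAAaagcagagagat
Sbp, TGTTCT, forward strand, chr17:23941842-23941871: cattgttttaaaTGTTCTcaaagccttggg
The Pbsn matches began 95 and 59 bases before its RefSeq start. The Sbp match began 64 bases before one of its 3 RefSeq starts, and the other 2 starts had no match. The annotated genes begin further upstream than the RefSeq starts that had matches, at 77853623 for Pbsn and 23941672 for Sbp. All windows printed here thus lie inside the annotated genes, and their place relative to the start depends on the annotation. Azgp1 had neither motif in its window. A match is a description of the letters only, and binding was not measured.

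The depth of a library was between 6569642 and 11225281 recovered reads (median 8586877). A recovered read is a whole estimated count got back from the normalized values, and not a sequenced read counted here. A share is the percentage of a library's recovered reads that one gene took. All 12 luminal epithelial markers, Pigr, Krt18 and Cd24a being the most abundant, were above 3 reads in every library. Several libraries stood apart in genes of particular glands. KO library 15AF at 10 weeks had nearly no Sbp or Spink1. WT library 12AF at 10 weeks, WT library 1AF at 30 weeks and KO library 5AF at 30 weeks had nearly none of Tgm4, the transglutaminase of the anterior and dorsal lobes, and of 9530053A07Rik, which together took at most 0.00111% of their reads and 0.0549 to 5.93% elsewhere. Reads of 10 seminal vesicle genes, led by Svs2, Svs5 and Pate4, took 6.56 to 10.3% of the KO libraries at 10 weeks and 0.000847 to 4.64% of the WT libraries. At 30 weeks these genes took at most 0.000854% of every WT library, but 6.32 to 9.18% of 2 KO and 2 A537T libraries, and 0.000143% and 0.000171% of the remaining libraries, KO 5AF and A537T 8AF. Reads of 31 skeletal muscle genes, led by Ttn, Myh4 and Acta1, took 4.08 to 13.2% of WT, 0.0625 to 2.13% of KO and 1.60 to 4.52% of A537T libraries at 10 weeks, and at most 0.0752% at 30 weeks.

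Together the 6 genes took from 0.361 to 14.7% of a library's reads, with a median of 7.61% over the 18 libraries. Most of these reads were from Sbp, which made up 66.7 to 82.9% of the sum in 17 libraries and 1.18% in library 15AF. Sbp was the gene with most reads in 6 libraries and among the 6 genes with most reads in every library but 15AF, where it ranked 3457. In levels per kilobase of the longest coding transcript (RPKM, which adjusts for length and depth), the order of the group medians was Sbp, Spink1, Pbsn, Msmb, Azgp1 and Apof in 5 of the 6 groups. In the WT group at 10 weeks these median RPKM levels were 101737 for Sbp, 26539 for Spink1, 1394 for Pbsn, 902 for Msmb, 211 for Azgp1 and 26.3 for Apof. Among neighbours in this order, ranges of RPKM overlapped between Sbp and Spink1 in 4 groups, and between Pbsn and Msmb in the WT group at 10 weeks and in all 3 groups at 30 weeks. They also overlapped between Spink1 and Pbsn in KO at 10 weeks, between Msmb and Azgp1 in A537T at 10 weeks, and between Pbsn and Azgp1 in A537T at 30 weeks. In the A537T group at 30 weeks Msmb, with a median of 852 RPKM, stood above Pbsn, with 428 RPKM.

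**Figure D1:**
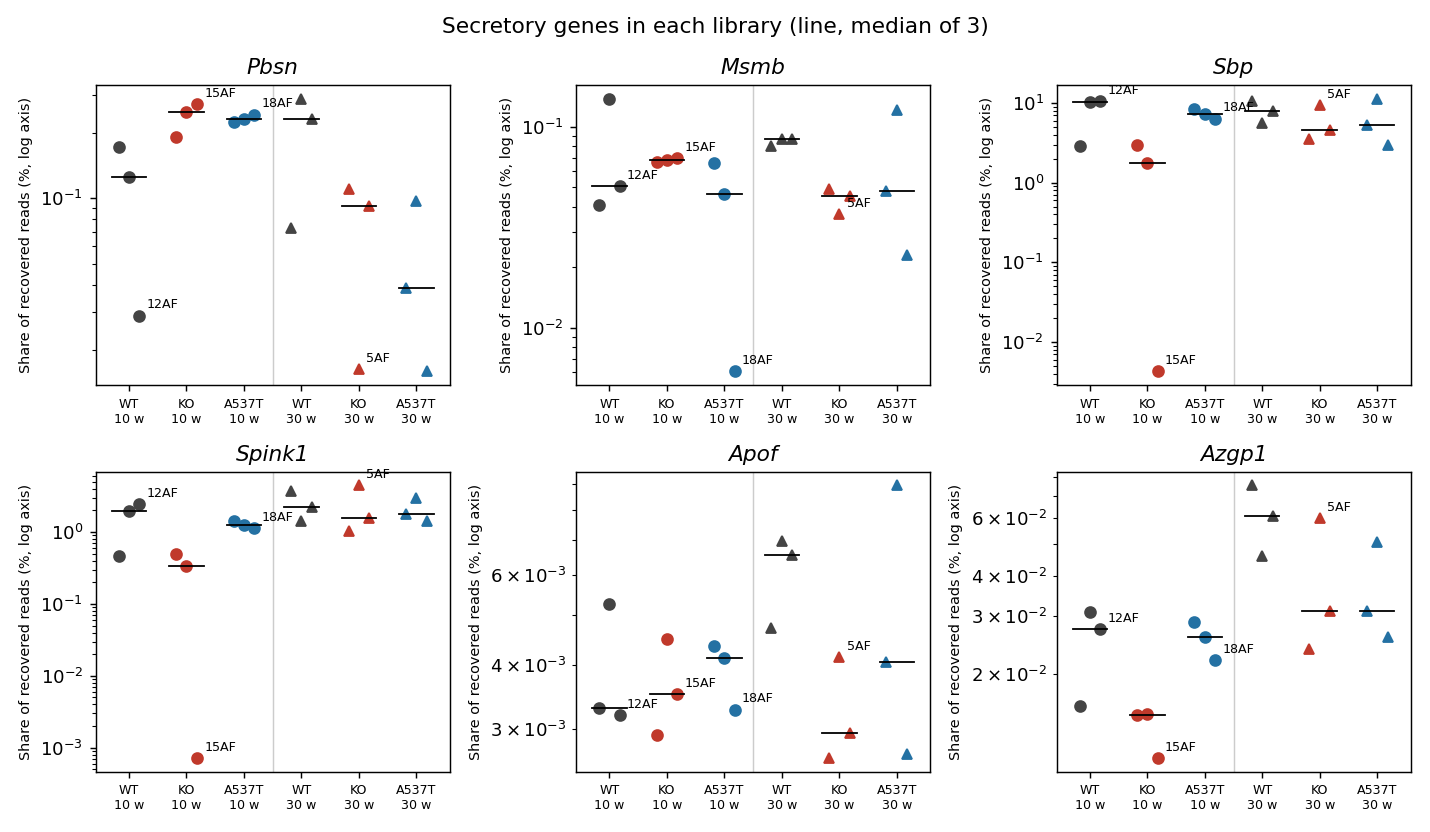
Share of recovered reads (percent, log axis) of each secretory gene, one point per library, by genotype and age (w, weeks), with a line at the median of 3 libraries. Sbp and Spink1 fall to 0.00428% and 0.000715% in KO library 15AF, and Pbsn is lowest in libraries 12AF, 5AF and 9AF.

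The targeted gene was measured first. In the KO table at 10 weeks Elac2 had 144 ± 21.1 normalized counts in WT and 115 ± 4.09 in KO libraries (SD, n = 3 each), and the log2 fold change of KO over WT was -0.31 ± 0.16 (SE, limma, adjusted p = 0.325). At 30 weeks the means were 166 ± 24.7 and 124 ± 26.5, a log2 fold change of -0.43 ± 0.20 (limma, adjusted p = 0.478). In A537T the log2 fold changes of Elac2 were 0.19 ± 0.16 at 10 weeks and -0.23 ± 0.23 at 30 weeks (limma, adjusted p = 0.796 and 0.658). Reads were counted over the whole gene, so loss of exon 8 alone could not be read from these values, and cells without Cre keep the intact gene.

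The first question was how KO prostates at 10 weeks differed from WT in their secretory genes. Fold changes were tested with limma on log2(normalized count + 1) over all genes whose normalized counts averaged 10 or more, with p adjusted by the Benjamini-Hochberg method over all of them, and all 6 members passed this filter in each comparison. None of the 6 genes was called, beside 0 calls among 15089 genes (0%). At an unadjusted p under 0.05, limma gave 1202 genes higher (7.97%) and 1728 lower (11.5%) in KO, and Azgp1 was the only member among them. edgeR called 0 genes and DESeq2 called 715 (4.75% of 15043), of which Azgp1 was the only member.

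Sbp took 2.91, 10.2 and 10.7% of reads in the WT libraries 10AF, 11AF and 12AF at 10 weeks. In the KO libraries 13AF, 14AF and 15AF its shares were 2.99, 1.79 and 0.00428%, the last from 281 reads (95% Wilson interval 0.00381 to 0.00481%). By share, KO library 13AF lay just above the lowest WT library, while by normalized count all 3 KO libraries were below every WT library. The log2 fold change of Sbp was -4.80 ± 2.41 (SE, limma, adjusted p = 0.312). The share of Sbp in 15AF was 418-fold below that of the next lowest library of all 18. Without 12AF and 15AF, named above for nearly lacking genes of particular glands, the log2 fold change was -1.32 ± 1.01 (limma, adjusted p = 0.851). Without 15AF alone it was -1.76 ± 1.08 (limma, adjusted p = 0.558). Library 12AF was the highest WT and 15AF the lowest KO library of this age in both Sbp and Spink1. A smaller change without them thus follows in part from that choice. In a bulk library fewer cells of a type and less RNA per cell cannot be told apart.

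Spink1 (ENSMUSG00000024503.3, reverse strand of chromosome 18 from 43728082 to 43737557 on GRCm38.p6) was low where Sbp was low. Its shares were 0.457, 1.93 and 2.47% in WT and 0.493, 0.336 and 0.000715% in KO libraries at 10 weeks, the last from 47 reads. By share the groups overlapped, and by normalized count they were apart by little, with 36646.9 in KO library 13AF and 36656.5 in WT library 10AF. Spink1 had a log2 fold change of -4.93 ± 2.43 (limma, adjusted p = 0.305). It was -1.87 ± 0.89 without 15AF (limma, adjusted p = 0.525) and -1.30 ± 0.79 without 12AF and 15AF (limma, adjusted p = 0.827). Although both genes were almost lost from 15AF, the ratio of Spink1 to Sbp reads there was 0.167, within the range of 0.157 to 0.231 in the other libraries at 10 weeks. Sbpl had no read in 15AF, which allows up to 3 reads, and at most 53 reads in any library. Its log2 fold change at 10 weeks was -2.66 ± 1.09 in KO (limma, adjusted p = 0.248) and 0.00 ± 0.58 in A537T (limma, adjusted p = 0.996), and at 30 weeks -0.60 ± 0.34 and -0.54 ± 0.51 (limma, adjusted p = 0.541 and 0.647).

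Azgp1 lay below WT in every KO library at 10 weeks. Its shares were 0.0160, 0.0309 and 0.0274% in WT and 0.0149, 0.0151 and 0.0110% in KO libraries, with no overlap between the groups. The log2 fold change was -1.03 ± 0.32, with an adjusted p of 0.189 by limma and of 0.0245 by DESeq2 on recovered reads. Leaving out WT library 10AF gave -1.39 ± 0.18 (limma, adjusted p = 0.0214), in a fit that called 2886 of 15044 genes (19.2%), and leaving out both 12AF and 15AF gave -0.65 ± 0.36 (limma, adjusted p = 0.808). Library 10AF was the lowest WT library in Azgp1 and the highest in seminal vesicle genes (4.64%). Without it those genes took 1.77 and 0.000847% of WT reads, against 6.56 to 10.3% in KO. Genotype and seminal vesicle reads cannot be told apart in that fit.

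Pbsn had the opposite sign. It took 0.172, 0.126 and 0.0288% of reads in WT and 0.191, 0.251 and 0.272% in KO libraries at 10 weeks, so that all 3 KO libraries were above every WT library. The log2 fold change was 1.25 ± 0.56 (limma, adjusted p = 0.273). It was 0.58 ± 0.25 without 12AF, the lowest WT library (limma, adjusted p = 0.418), and 0.49 ± 0.31 without 12AF and 15AF (limma, adjusted p = 0.835). Library 15AF, which had lost Sbp and Spink1, had the highest share of Pbsn of the 10-week libraries.

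Msmb and Apof had overlapping groups at 10 weeks. The shares of Msmb were 0.0409, 0.138 and 0.0507% in WT and 0.0670, 0.0685 and 0.0697% in KO libraries, with a log2 fold change of -0.16 ± 0.43 (limma, adjusted p = 0.853) that turned to 0.054 when libraries were scaled to the same total. Apof took 0.00292 to 0.00450% of KO and 0.00320 to 0.00527% of WT reads, a log2 fold change of -0.30 ± 0.26 (limma, adjusted p = 0.521). By normalized count, then, 1 of the 6 genes was above and 3 were below WT in all 3 KO libraries, beside 11.7% and 14.3% of all genes tested. By share, where Sbp and Spink1 overlapped, Pbsn was above and Azgp1 alone below. How many of all genes were so placed by share was not counted. The skeletal muscle genes above were lower in KO than in every WT library and the seminal vesicle genes higher, and their part in these differences was not tested.

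**Figure D2:**
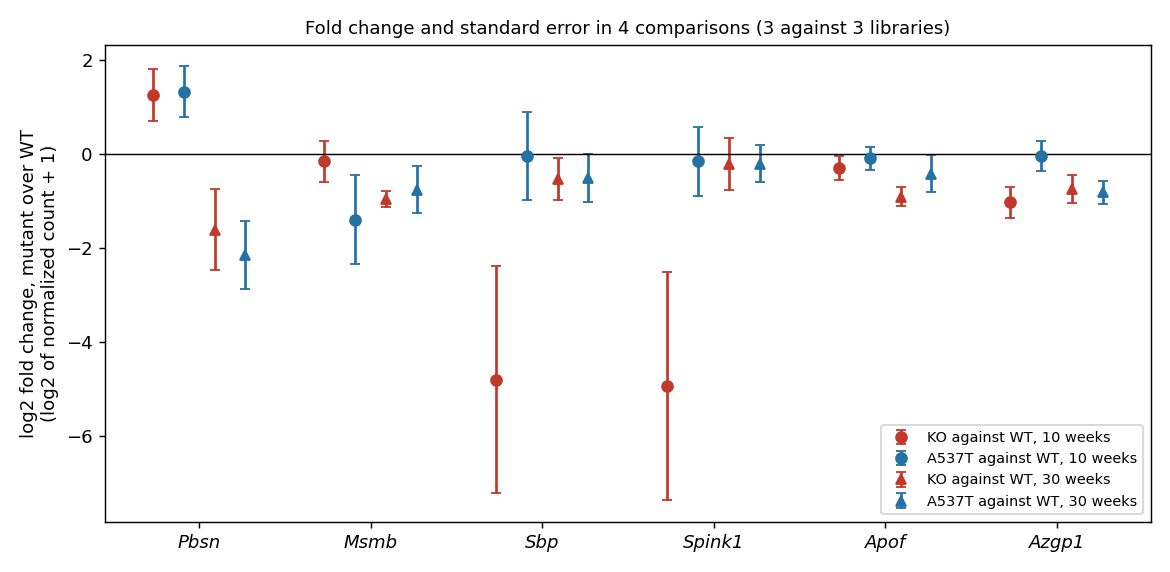
Log2 fold change of mutant over WT on the log2(normalized count + 1) scale for each secretory gene, with bars for the standard error of the limma fit, in the 4 comparisons of 3 against 3 libraries. Pbsn is above 0 at 10 weeks and below 0 at 30 weeks in both mutants, and the bars are widest for Sbp and Spink1 in KO at 10 weeks.

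In A537T prostates at 10 weeks none of the 6 genes was called, beside 0 of 15131 genes (0%). limma gave 418 genes higher (2.76%) and 555 lower (3.67%) at an unadjusted p under 0.05, edgeR called 0 genes, and DESeq2 called 90 (0.608% of 14808), none of them a member. Pbsn was the only member whose groups did not overlap. Its shares were 0.225, 0.231 and 0.243% in A537T libraries 16AF, 17AF and 18AF against 0.0288 to 0.172% in WT, and all 3 mutant libraries were above every WT library, as were those of 5.58% of all genes tested (6.34% were below). The log2 fold change of Pbsn was 1.32 ± 0.54 (limma, unadjusted p = 0.0435, adjusted p = 0.746), and without WT library 12AF it was 0.65 ± 0.22 (limma, adjusted p = 0.958).

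The major products Sbp and Spink1 lay within the range of WT. Sbp took 8.51, 7.36 and 6.39% of reads in A537T libraries at 10 weeks, with a log2 fold change of -0.04 ± 0.93 (limma, adjusted p = 0.994), and Spink1 took 1.43, 1.24 and 1.12%, with -0.16 ± 0.73 (limma, adjusted p = 0.971). Azgp1 and Apof had log2 fold changes of -0.03 ± 0.32 and -0.09 ± 0.24 (limma, adjusted p = 0.987 and 0.947). These standard errors leave changes of the size of 1 log2 unit in Sbp undetectable with 3 libraries a group. The signs of all 4 turned in some fits that left out 1 library.

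Msmb was uneven among A537T libraries at 10 weeks. It took 0.0661 and 0.0464% in 16AF and 17AF but 0.00605% in 18AF, from 471 reads, the lowest share of Msmb in all 18 libraries. The log2 fold change was -1.40 ± 0.94 (limma, adjusted p = 0.767). It was -0.28 ± 0.53 without 18AF and -2.09 ± 0.95 without 16AF, the lowest and highest A537T libraries (limma, adjusted p = 0.97 and 0.755). Library 18AF had more reads of basal epithelial genes (0.147%, led by Dst, Krt15 and Krt5) and smooth muscle genes (0.870%, led by Myh11, Acta2 and Tagln) than any other library, and the part of these in the low Msmb was not tested. Of the A537T libraries at this age 18AF also had the lowest shares of Sbp, Spink1, Apof and Azgp1 and the highest of Pbsn.

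At 30 weeks the log2 fold changes of all 6 members in KO were below 0. None was called among 14729 genes by limma (0 calls, 0%), with 819 genes higher (5.56%) and 797 lower (5.41%) at an unadjusted p under 0.05, Msmb, Apof and Azgp1 among the latter. edgeR called 0 genes, and DESeq2 called 285 (1.94% of 14723), Msmb and Apof among them. Msmb and Apof were below WT in all 3 KO libraries, as were 8.41% of all genes tested, and no member was above WT in all 3 (7.92% of all genes).

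Msmb took 0.0805, 0.0866 and 0.0871% of reads in WT libraries 1AF, 2AF and 3AF and 0.0488, 0.0369 and 0.0451% in KO libraries 4AF, 5AF and 6AF. Each group spanned a narrow range, and the gap between them was wider than either. The log2 fold change was -0.96 ± 0.17, with an unadjusted p of 0.000774 and an adjusted p of 0.292 by limma, and an adjusted p of 0.000246 by DESeq2. Without 5AF it was -0.78 ± 0.10 (limma, adjusted p = 0.00865), in a fit that called 944 of 14732 genes (6.41%).

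Apof took 0.00473, 0.00698 and 0.00655% of WT and 0.00264, 0.00415 and 0.00295% of KO reads at 30 weeks, again with no overlap. Its log2 fold change was -0.91 ± 0.20, with an adjusted p of 0.331 by limma and of 0.00931 by DESeq2, and it was -1.03 ± 0.20 without 5AF (limma, adjusted p = 0.0314). Azgp1 took 0.0757, 0.0458 and 0.0607% of WT and 0.0238, 0.0600 and 0.0311% of KO reads, 5AF being the KO library within the WT range, with a log2 fold change of -0.74 ± 0.30 (limma, adjusted p = 0.439). Without 5AF the change of Azgp1 was -1.05 ± 0.20 (limma, adjusted p = 0.0336), while without 4AF it was -0.49 ± 0.28 and without 1AF -0.58 ± 0.33 (limma, adjusted p = 0.774 and 0.613).

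Pbsn took 0.0730, 0.288 and 0.231% of reads in WT and 0.111, 0.0164 and 0.0921% in KO libraries at 30 weeks. The groups overlapped only through WT library 1AF, and the log2 fold change was -1.61 ± 0.86 (limma, adjusted p = 0.524). With 1 library left out it ranged from -2.23 ± 0.88 (without 1AF, limma, adjusted p = 0.503) to -0.67 ± 0.56 (without 5AF, limma, adjusted p = 0.524). Without both 1AF and 5AF, the libraries of this comparison that lack Tgm4 and 9530053A07Rik, it was -1.29 ± 0.16 (limma, adjusted p = 0.0017). The fit called 1684 of 14811 genes (11.4%). It was added after seeing the data and kept 2 libraries in each group. Over the 18 libraries Pbsn had r of 0.86 with Tgm4 and 0.83 with 9530053A07Rik. The libraries left out, the lowest of their groups in Pbsn, were thus chosen by correlates of Pbsn, and its p in this fit is not independent of that choice. In the same fit Msmb was -0.83 ± 0.10, Apof -1.21 ± 0.13 and Azgp1 -0.89 ± 0.15 (limma, adjusted p = 0.00142, 0.001 and 0.00833). Leaving out 5AF leaves 2 KO libraries in which seminal vesicle genes took 6.32 and 8.53% of reads, against WT libraries with nearly none, so in these fits genotype and seminal vesicle reads cannot be told apart.

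Sbp and Spink1 had overlapping groups in KO at 30 weeks. Sbp took 10.8, 5.61 and 7.85% of WT and 3.54, 9.53 and 4.63% of KO reads, a log2 fold change of -0.53 ± 0.44 (limma, adjusted p = 0.674). Spink1 took 3.67, 1.41 and 2.21% of WT and 1.02, 4.46 and 1.57% of KO reads, a log2 fold change of -0.22 ± 0.55 (limma, adjusted p = 0.901). In KO the highest library of both genes was 5AF, the lowest KO library in Pbsn.

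In A537T prostates at 30 weeks none of the 6 genes was called among 14789 (0 calls by limma, 0%), although 1087 genes were higher (7.35%) and 929 lower (6.28%) at an unadjusted p under 0.05, Pbsn and Azgp1 among the latter. edgeR called 0 genes and DESeq2 called 472 (3.19% of 14778), none of them a member, Azgp1 having an adjusted p of 0.0501. No member was above or below WT in all 3 A537T libraries, as 9.18% and 9.4% of all genes tested were.

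Pbsn took 0.0386, 0.0977 and 0.0159% of reads in A537T libraries 7AF, 8AF and 9AF at 30 weeks, all below 2 of the 3 WT libraries, with a log2 fold change of -2.14 ± 0.72 (limma, unadjusted p = 0.0197, adjusted p = 0.305). Azgp1 took 0.0311, 0.0509 and 0.0258%, a log2 fold change of -0.82 ± 0.25 (limma, unadjusted p = 0.0134, adjusted p = 0.293). Without 8AF the changes were -2.77 ± 0.63 for Pbsn, -1.06 ± 0.19 for Azgp1 and -1.35 ± 0.26 for Msmb (limma, adjusted p = 0.0462, 0.0228 and 0.029), in a fit that called 1224 of 14801 genes (8.27%). Without 9AF they were -1.53 ± 0.65 for Pbsn, -0.65 ± 0.26 for Azgp1 and -0.23 ± 0.35 for Msmb (limma, adjusted p = 0.665, 0.654 and 0.908). Library 8AF was the A537T library at this age without seminal vesicle reads, so here too genotype and those reads cannot be told apart once it is left out.

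Library 8AF was the highest of its group in all 6 members. Msmb took 0.0479, 0.121 and 0.0231% in 7AF, 8AF and 9AF, with a log2 fold change of -0.76 ± 0.50 (limma, adjusted p = 0.514). Sbp took 5.32, 11.4 and 2.94% and Spink1 took 1.80, 2.95 and 1.40%, with log2 fold changes of -0.51 ± 0.51 and -0.20 ± 0.40 (limma, adjusted p = 0.671 and 0.838). Apof took 0.00407, 0.00895 and 0.00269%, with -0.42 ± 0.39 (limma, adjusted p = 0.643).

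The summed share of the 6 genes followed Sbp. It was 9.77 ± 5.36% in WT and 2.19 ± 1.71% in KO (SD, n = 3 each) at 10 weeks, and 8.98 ± 1.25% in A537T. At 30 weeks it was 10.9 ± 3.62% in WT, 8.41 ± 5.0% in KO and 8.77 ± 5.27% in A537T. The difference of KO from WT at 10 weeks was -7.57 percentage points, and ranged from -10.7 to -5.82 when 1 library was left out. For A537T the differences were taken within the A537T tables, where WT had 9.82 ± 5.39% at 10 weeks and 10.9 ± 3.62% at 30 weeks. The other differences were -0.84 for A537T at 10 weeks, -2.45 for KO at 30 weeks and -2.12 for A537T at 30 weeks, each smaller than the SD of the WT libraries. With 1 library left out, that of A537T at 10 weeks ran from -3.94 (without 10AF) to 0.92 (without 12AF), that of KO at 30 weeks from -5.30 to -0.54, and that of A537T at 30 weeks from -5.05 to 0.055. No test was made of this sum.

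**Figure D3:**
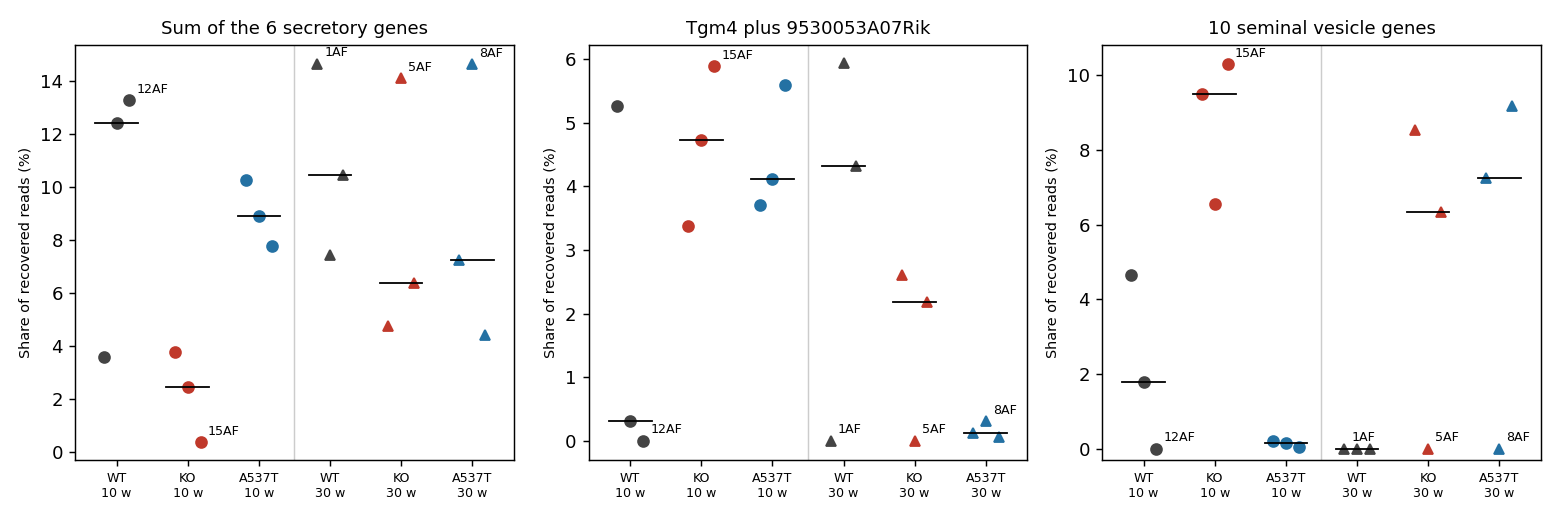
Summed share of recovered reads (percent) of the 6 secretory genes, of Tgm4 plus 9530053A07Rik, and of 10 seminal vesicle genes, one point per library, with a line at the median of 3. Library 15AF is lowest in the secretory sum at 0.361% and highest in seminal vesicle genes at 10.3%, while 1AF, 5AF and 8AF are high in the sum (14.1 to 14.7%) and near 0 in seminal vesicle genes.

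Between the ages only shares could be set side by side, since the tables were normalized separately for each age. In WT, Azgp1 was higher in all 3 libraries at 30 weeks than in every library at 10 weeks, as were 16.5% of all genes, with 0.0248 ± 0.00780% at 10 and 0.0607 ± 0.0149% at 30 weeks (SD, n = 3). In KO, Sbp, Spink1 and Azgp1 were higher at 30 weeks without overlap (6.4% of all genes), and Pbsn and Msmb lower (21.4% of all genes). In A537T, Pbsn was lower at 30 weeks without overlap, as were 15.1% of all genes, from 0.233 ± 0.00916% to 0.0507 ± 0.0422%. The ratio of Spink1 to Sbp reads was 0.157 to 0.231 in the 9 libraries at 10 weeks and 0.251 to 0.477 in the 9 at 30 weeks, with no overlap between the ages in any genotype. It was one of several ratios taken, and how often other pairs of genes are so separated was not counted.

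The log2 fold change of Pbsn was above 0 at 10 weeks and below 0 at 30 weeks in both mutants. The difference between the ages was compared with arrangements that permuted genotype within each age. Their null is no effect of genotype at either age, so a small p does not by itself show unequal effects. In KO the log2 fold change at 30 weeks was 2.86 log2 units below that at 10 weeks, a difference of -2.86 (exact permutation of genotype within each age, two-sided, p = 0.045, 400 arrangements). In A537T the difference was -3.47 (exact permutation test, p = 0.01). These were 2 of 12 such tests, 6 genes in 2 mutants. The other 10 gave p from 0.17 to 0.98, and no p was adjusted over the 12. In a limma fit of the same difference over all genes, Pbsn had an adjusted p of 0.336 in KO and 0.250 in A537T, beside 0 calls and 12.8% and 12.2% of genes at an unadjusted p under 0.05. Without 12AF and 5AF, the difference in KO was -1.25 ± 0.70 (limma, adjusted p = 0.54).

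Across the 18 libraries the 6 genes did not move as one. Pearson's r of log2(RPM + 1), where RPM is the share scaled to a library of fixed size, given as a description over libraries that share groups and depth, was 0.98 between Sbp and Spink1. It was 0.71 between Spink1 and Azgp1 and 0.63 between Sbp and Azgp1. Pbsn had r of -0.28 with Sbp, -0.41 with Spink1 and -0.34 with Azgp1, but 0.86 with Tgm4 and 0.83 with 9530053A07Rik. In these libraries Pbsn thus went with the anterior and dorsal lobe list and not with Sbp, so the name of the set does not describe it well. Msmb had r of 0.58 with Apof and between -0.04 and 0.24 with Pbsn, Sbp, Spink1, Azgp1, Tgm4 and 9530053A07Rik. The r of Sbp and Spink1 rests in part on library 15AF, which lies far below the others in both.

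**Figure D4:**
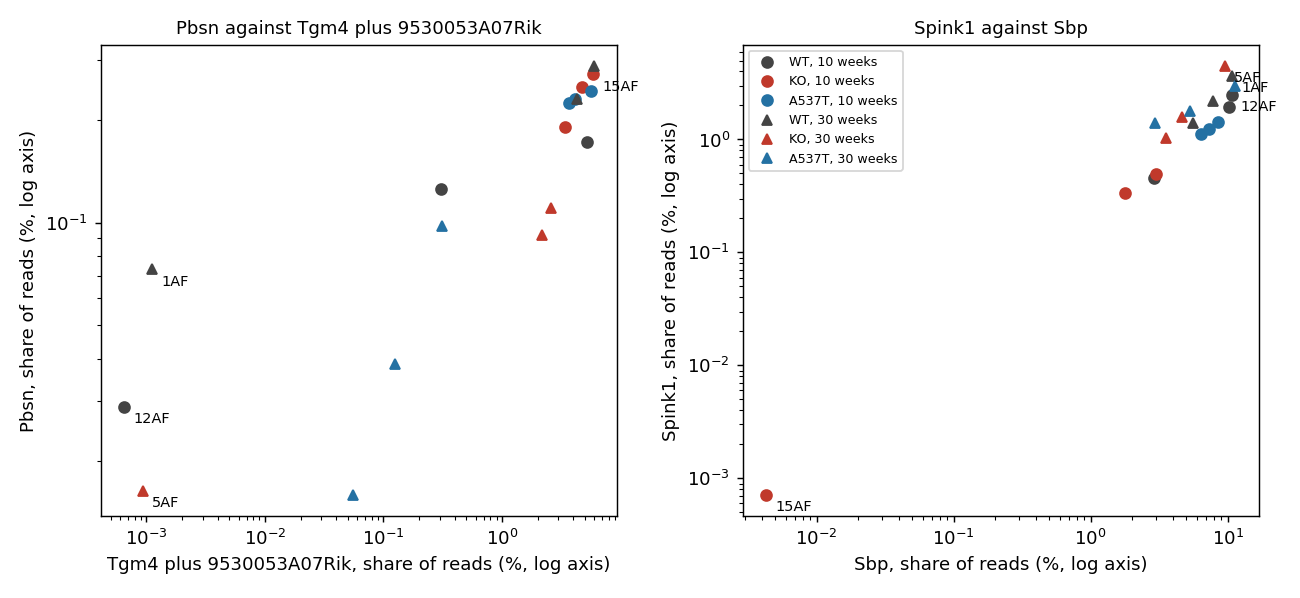
Share of reads (percent, log axes) of Pbsn against Tgm4 plus 9530053A07Rik, and of Spink1 against Sbp, one point per library (circles 10 weeks, triangles 30 weeks). Pbsn is 0.0164 to 0.0730% in the 3 libraries 12AF, 1AF and 5AF that nearly lack the other pair, and Spink1 falls with Sbp into library 15AF.

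Of 8989 genes with a mean of at least 10 RPM, those most like each member over the 18 libraries were found by Pearson's r. For Pbsn they were Rnase1 (r = 0.99), a secreted ribonuclease, and Atp6v1c2 (r = 0.97), a subunit of the vacuolar proton pump. For Msmb they were Defb1 and Defb50 (both r = 0.86), which encode secreted beta-defensins. Sbp and Spink1 were each other's nearest gene, followed for both by Slc5a8 (r = 0.96 and 0.97), a sodium-coupled carrier of monocarboxylates. For Azgp1 they were Eif4ebp1 (r = 0.99), a repressor of cap-dependent translation, and Sppl2a (r = 0.98), an intramembrane protease. For Apof they were 9130230L23Rik and Ncoa4 (both r = 0.90), the latter a receptor for the turnover of ferritin.

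Since the Cre driver uses the probasin promoter, Pbsn and Elac2 were set side by side in the KO libraries. At 10 weeks, 13AF, 14AF and 15AF had Pbsn shares of 0.191, 0.251 and 0.272% and Elac2 shares of 0.00161, 0.00137 and 0.00154%. At 30 weeks, 4AF, 5AF and 6AF had Pbsn shares of 0.111, 0.0164 and 0.0921% and Elac2 shares of 0.00103, 0.00184 and 0.00129%. At each age the KO library with least Pbsn was the one with most Elac2, and at 10 weeks 15AF had more of both than 14AF. The order at 10 weeks was within counting error. The 95% Wilson intervals of Elac2 were 0.00136 to 0.00190% in 13AF, 0.00112 to 0.00167% in 14AF and 0.00127 to 0.00187% in 15AF. In A537T at 30 weeks the order was the other way, 8AF being highest in both genes. Over the 18 libraries r between Pbsn and Elac2 was 0.28. At 30 weeks the KO libraries lower in Elac2, 4AF and 6AF, were those with seminal vesicle reads. The A537T libraries of that age with such reads, 7AF and 9AF, had 0.00137 and 0.00122% of Elac2, and 8AF, without them, had 0.00224%. The part of these reads in the Elac2 shares was not tested. WT libraries had 0.00155 to 0.00220% of Elac2. With 3 libraries an age no relation was tested, and the transgene itself was not measured.

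**Figure D5:**
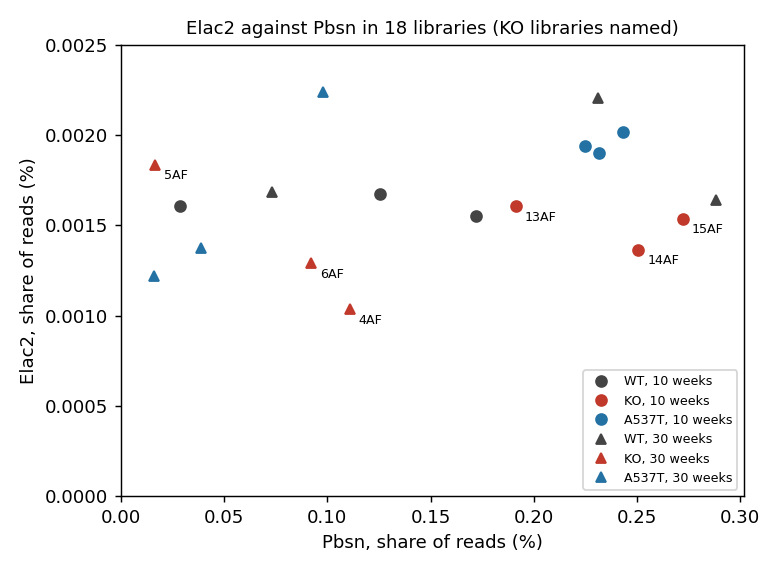
Share of reads (percent) of Elac2 against that of Pbsn in 18 libraries, with KO libraries named (circles 10 weeks, triangles 30 weeks). KO libraries 4AF and 6AF are lowest of the KO group in Elac2 (0.00103 and 0.00129%), and 5AF, with 0.0164% of Pbsn, is within the range of WT.

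Epithelial genes and genes of other tissues were counted from lists for comparison, and limma called 0 genes of each list described here in any comparison. For the 12 luminal genes the median log2 fold change was -0.07 (KO) and 0.12 (A537T) at 10 weeks, and -0.31 and -0.32 at 30 weeks, where the median over all tested genes was between -0.01 and 0.01 in the 4 comparisons, with 5 of 12 lower in A537T at 30 weeks at an unadjusted p under 0.05 (6.28% of all genes). The luminal list took 0.434 to 0.527% of WT reads at 30 weeks, 0.237 to 0.297% in the KO libraries with seminal vesicle reads and 0.575% in 5AF.

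In the same order of comparisons, for the 6 basal genes the medians were 0.43, 0.61, 0.37 and 0.10, and for the 7 smooth muscle genes 0.94, 0.96, 0.27 and 0.12. For the 6 adipocyte genes (led by Cfd, Fabp4 and Cidec) they were -1.18, 0.46, 2.03 and 1.33. Of the 8 leukocyte genes (led by Cd74, Lyz2 and Ptprc) 6 were tested, with medians of 0.17, 0.10, 0.46 and 1.20, and 5 of 6 were higher in A537T at 30 weeks at an unadjusted p under 0.05 (7.35% of all genes). The 10 seminal vesicle genes had medians of 4.92, -1.58, 5.96 and 6.47, and the skeletal muscle genes -6.80, -1.65, 0.16 and -1.02, all 31 being lower in KO at 10 weeks at an unadjusted p under 0.05 (11.5% of all genes). Tgm4 and 9530053A07Rik had medians of 5.09 (KO) and 5.15 (A537T) at 10 weeks, above 0 as for Pbsn, and -0.84 and -1.58 at 30 weeks. The part of these genes in the differences of the secretory genes was not tested.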

How the data were processed

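Total RNA of dissected ventral and lateral lobes was sequenced on an Illumina NovaSeq with a TruSeq protocol. Per the submitters' notes, reads were trimmed with Trim Galore 0.4.1 and cutadapt 1.18, aligned with STAR 2.7.3a to GRCm38.p6 and quantified by strand with Salmon. The deposited signal values hold, in 4 tables of 6 libraries, the counts that the authors scaled by a size factor per library (DESeq2 1.26). Of the authors' comparisons (mean count, shrunken log2 fold change, SE and s-value) only the mean count was used, to assign libraries to groups. Columns carry library labels without genotype or replicate numbers. Each was assigned to its group by matching mean counts to those comparisons and by the WT libraries shared within an age. The genotype of a library is thus inferred and not read from a label.

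Whole numbers were recovered, 100% of values lying within 0.05 of a whole multiple, although 4 columns have a size factor too close to 1 for an automatic check of these steps. These whole reads are estimated counts that depend on the table: those of a WT library differ between its 2 tables for 53.6 to 64.1% of genes, and member shares by at most 4.00%. WT shares are from the KO tables, except in differences of the summed share of A537T from WT. Of the gene IDs, 54450 matched the annotation exactly and 55107 without versions. Wilson intervals (95%) and the floor of 3 reads cover counting error only, and the widest interval was ± 28.9% of a member's share (Spink1 in 15AF).

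Each mutant was compared with the WT of its own table with limma 3.58.1 in R 4.3.3 (lmFit, eBayes with a mean trend) on log2(normalized count + 1), for a mean of at least 10, with Benjamini-Hochberg adjustment and a threshold of 0.05. Fold changes understate low genes. The script was tested on simulated data. Shares came from Python 3.11.15 (scipy 1.17.1, pandas 2.3.3, numpy 2.4.6), and figures from matplotlib 3.10.9. The study's methods call the replicates biological, with 3 per line, and p-values measure the spread between these libraries.

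The members and gene lists were chosen with earlier results of these data known, and the seminal vesicle, skeletal muscle, anterior and dorsal lobe, luminal, basal, smooth muscle, adipocyte and leukocyte lists were written by hand. Named genes are the 6 members, Elac2, Sbpl, the 3 most abundant genes of each list and the 2 genes most correlated with each member. A further list, with its leading genes, is not reported here. Alternatives were pseudocount 8, minimum means of 1 and 100, 2 scalings, no trend and leaving out each library. Added after seeing the data were edgeR 4.0.16 (quasi-likelihood) and DESeq2 1.42.0 on recovered reads, fits without 12AF and 15AF or without 1AF and 5AF, and the alternatives for the Pbsn age difference.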

Additional observations from a re-analysis of the deposited data

Results flagged for a closer look

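The log2 effect of KO on Pbsn, the gene of probasin, was 1.25 at 10 weeks and -1.61 at 30 weeks. The difference was -2.86 (exact permutation of genotype within each age, p = 0.045). All 3 KO libraries were above the WT mean at 10 weeks and below it at 30 weeks. Leaving out 1 of the 12 libraries gave differences from -3.48 (without 1AF, exact permutation p = 0.015) to -1.92 (without 5AF, p = 0.095), and p was above 0.05 without 14AF, 15AF, 12AF, 5AF, 2AF or 3AF.

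The log2 effect of A537T on Pbsn was 1.32 at 10 weeks and -2.14 at 30 weeks, a difference of -3.47 (exact permutation test, p = 0.01), with all 3 A537T libraries on opposite sides of the WT mean at the ages. Without 1 library it ranged from -4.09 to -2.79, with exact permutation p from 0.01 to 0.035. The KO and A537T values share their WT libraries, and neither difference passed an adjustment over all genes. Reads of Tgm4 and 9530053A07Rik moved in the same directions: their share was above 3% in all 6 mutant libraries at 10 weeks and in 1 of 3 WT libraries, and at 30 weeks in 2 of 3 WT libraries and in no mutant library. Their part in the Pbsn differences was not tested.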

How the results depend on the processing

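No paired analysis was possible because the columns carry no replicate numbers. Of 348 alternative values of the members' log2 fold changes, 314 kept their direction and side of the threshold, 14 passed the threshold and 20 turned sign. The 14 are given with the comparisons. Msmb in KO at 10 weeks was 0.054 scaled to the same total, 0.043 with seminal vesicle and skeletal muscle genes left out of that total, and -0.58 (without 10AF) to 0.34 (without 11AF) with 1 library left out. In A537T at 10 weeks, scaling to the same total gave 0.10 for Sbp, 0.047 for Apof and 0.11 for Azgp1, and the other scaling 0.0012 for Azgp1. In the same comparison leaving out 10AF gave the lowest values, -0.73 for Sbp, -0.98 for Spink1, -0.26 for Apof and -0.39 for Azgp1. Leaving out 11AF gave 0.21 for Sbp, 0.09 for Spink1, 0.10 for Apof and 0.12 for Azgp1. Leaving out 12AF gave 0.39 for Sbp, 0.41 for Spink1 and 0.17 for Azgp1, and leaving out 18AF gave 0.12 for Sbp, 0.09 for Apof and 0.13 for Azgp1. Spink1 at 30 weeks was lowest at -0.76 for KO when 5AF was left out and highest at 0.20 when 4AF was, with 0.12 for 1AF. For A537T its lowest value was -0.52 (2AF left out) and its highest 0.14 (1AF left out). The 2 scalings moved the median of all genes at 10 weeks to 0.20 and 0.19 (KO) and to 0.15 and 0.046 (A537T), and the second to 0.10 for A537T at 30 weeks.

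The count of genes called was 0 in all 4 comparisons. Without a mean trend it was 1 (KO) and 2 (A537T) at 10 weeks, and with a minimum mean of 1 it was 2 in A537T at 10 weeks. DESeq2 called 715, 90, 285 and 472 genes. Leaving out 1 library gave 0 to 2886 calls in KO at 10 weeks (2886 without 10AF, 185 without 14AF), 0 to 50 in A537T at 10 weeks (50 without 10AF), 0 to 944 in KO at 30 weeks (944 without 5AF) and 0 to 1224 in A537T at 30 weeks (1224 without 8AF). Without 1AF and 5AF, KO at 30 weeks had 1684. The cause was not tested. The summed shares moved by less than 1 SD (the root mean square of the SDs of both groups, which are wide) under every alternative, but the difference of A537T at 10 weeks, -0.84, was 0.51 without 11AF, 0.92 without 12AF and -3.94 without 10AF.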
